A study of Mus musculus with 6 samples.

Results

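The genes described here encode the proteins that coat, fuse and break down lipid droplets, together with a fatty acid uptake receptor, in the livers of mouse pups with and without an activated human *SRY* transgene. They were taken by name, as every probe of the liver array table whose gene symbol was *Adfp* (current symbol *Plin2*), *2310016C08Rik* (current symbol *Hilpda*), *Cd36*, *Cidea*, *Cideb*, *Cidec*, *G0s2*, *Pnpla2*, *Pnpla3* or *Lipe*. Of these 10 genes, 9 were represented by 11 of the 25697 probes, and *Pnpla3* was not analysed here. No measured value entered the rule.

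The study compared 3 hSRY-OFF with 3 hSRY-ON livers, each from a separate male pup at postnatal day 6, of strain FVB per the labels and FVB/N per the methods, on Illumina MouseRef-8 v2.0 BeadChips. The responder line, Signalox-hSRY, was 1 line with a single copy of the cassette at the H11 locus. By the methods' definition, hSRY-OFF mice carried this cassette unrecombined, so that the ubiquitous CAG promoter drove the red fluorescent protein DsRed2 and the human gene was silent. In hSRY-ON mice, Cre recombinase carried over in the oocyte of a *Ddx4-Cre* mother had removed DsRed2 in the single-cell embryo and placed human *SRY* and EGFP under the CAG promoter throughout the body, and the hSRY-ON pups used had not themselves inherited *Ddx4-Cre*. The study also describes littermates without the responder as controls, and the labels give the array controls only as hSRY-OFF. Under the methods' definition of hSRY-OFF, human *SRY*, EGFP, the loss of DsRed2 and Cre exposure of the zygote went together in hSRY-ON pups and cannot be told apart. The labels do not say whether the array controls had shared the Cre exposure. Expression of the human transgene was not analysed here.

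Hepatocytes store surplus fatty acids as triglyceride in lipid droplets. Perilipins coat the droplet and limit access of lipases, adipose triglyceride lipase (ATGL, encoded by *Pnpla2*) performs the first step of breakdown with the coactivator *Abhd5*, and the small proteins encoded by *G0s2* and *Hilpda* inhibit it. Hormone-sensitive lipase (*Lipe*) and monoglyceride lipase (*Mgll*) complete the breakdown, while the CIDE proteins act in droplet fusion and, for *Cideb*, in the lipidation of very-low-density lipoprotein. In the liver many of these genes respond to fasting and to fatty acids.

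Levels are given as log2 of the normalized probe intensity, and differences as hSRY-ON minus hSRY-OFF on that log2 scale with the standard error (SE) and the Benjamini-Hochberg adjusted p of limma, called at 0.05. A probe counted as detected on an array when its detection p was under 0.01, and the 10734 probes detected on at least 3 of the 6 arrays were tested. Detected probes made up 40.2% to 41.9% of each array, and the correlation between arrays was 0.987 to 0.992 within hSRY-OFF, 0.965 to 0.982 within hSRY-ON and 0.912 to 0.939 between the groups. Of all tested probes, 33.1% were called, 15.8% as higher and 17.3% as lower in hSRY-ON livers, and 50% had groups that did not overlap. The median difference over all tested probes was 0.02.

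Transcripts for the droplet coat, for ATGL and for 1 of its inhibitors were each higher in hSRY-ON livers. *Cideb* fell, and *G0s2* varied too much among hSRY-ON livers to be called. *Hilpda* rose 9.70-fold, *Pnpla2* 4.07-fold and *Adfp* 2.79-fold, and *Cideb* fell 1.85-fold. These 5 genes, with 6 probes, were detected on all 6 arrays and so were all tested. Of the 6 probes, 4 were called higher, 1 lower and 1 was not called, with a median difference of 1.75. Groups did not overlap for 5 of the 6. The remaining *Cd36*, *Cidea*, *Cidec* and *Lipe* were at or near background. In whole liver, fewer cells of a type and less RNA per cell cannot be told apart.

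**Figure D1:**
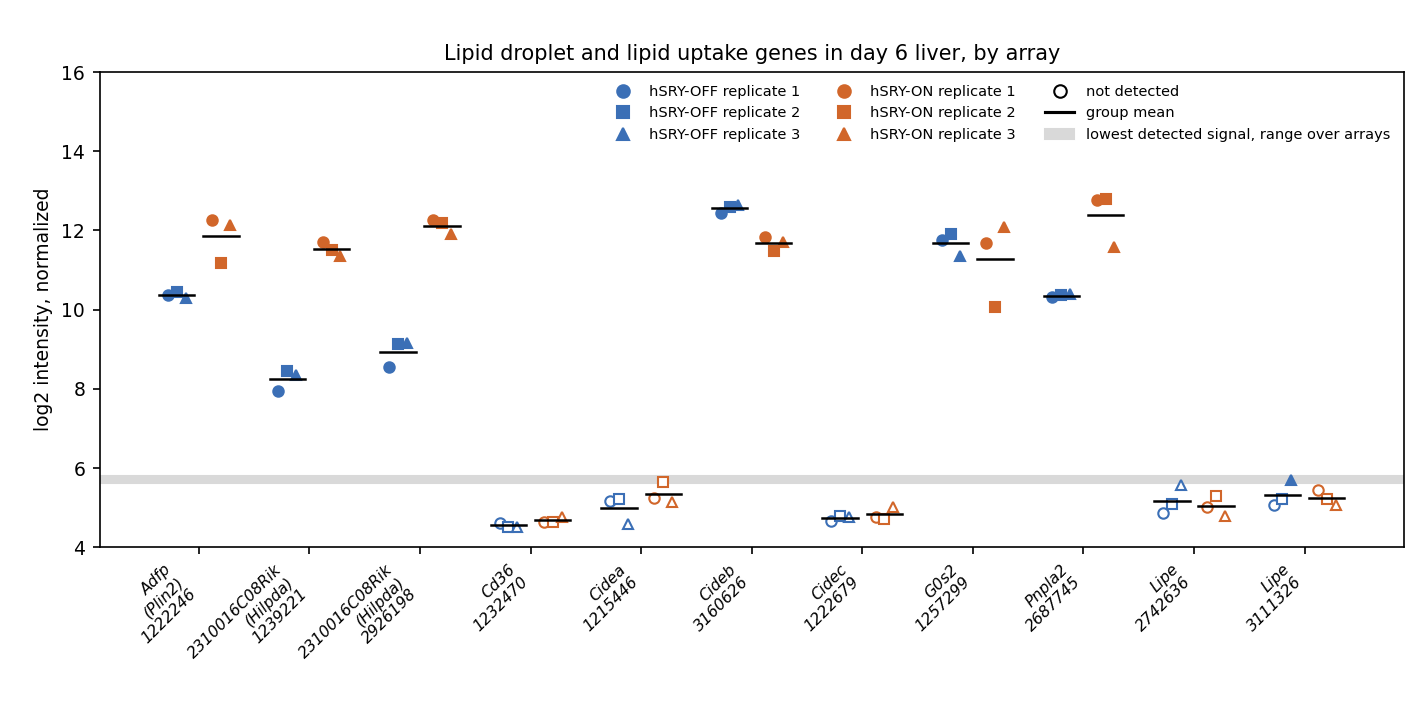
Log2 normalized intensity of every probe of the droplet genes on each of the 6 arrays, with hSRY-OFF in blue, hSRY-ON in orange and open symbols where the probe was not detected on that array. *Adfp*, *Pnpla2* and both *2310016C08Rik* probes had all 3 hSRY-ON livers above all 3 hSRY-OFF livers, *Cideb* had them below, and *G0s2* overlapped. Heights compare groups within a probe, not probes with each other.

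*Adfp* encodes perilipin 2, the main coat protein of hepatocyte droplets. Its probe (ILMN_1222246) read 10.38, 10.44 and 10.29 in hSRY-OFF livers and 12.25, 11.18 and 12.13 in hSRY-ON livers. Every hSRY-ON liver was above every hSRY-OFF liver, with hSRY-ON replicate 2 the lowest of its group. The 95% interval of the fold ran from 1.79 to 4.35 (limma adjusted p = 0.00667). In the deposited intensities, before any correction, the same probe ran from 1169 to 1691 in hSRY-OFF and from 2349 to 5192 in hSRY-ON livers.

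The 300-base window at the RefSeq start of *Plin2* (GRCm38.p6, chr4:86670010-86670309, minus strand) is shown because this gene and the other droplet genes that rose were searched for shared motifs, and capitals mark the match.
Plin2 promoter: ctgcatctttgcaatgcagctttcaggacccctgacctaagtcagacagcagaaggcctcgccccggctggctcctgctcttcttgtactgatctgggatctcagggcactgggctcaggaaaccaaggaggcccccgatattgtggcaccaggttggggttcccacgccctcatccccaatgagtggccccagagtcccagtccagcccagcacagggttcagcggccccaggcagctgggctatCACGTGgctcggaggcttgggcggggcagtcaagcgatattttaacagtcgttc
The searched motifs were ACGTG, the core of the hypoxia response element, AGGTCANAGGTCA, a direct repeat bound by PPAR receptors, and TGTTTAC, a FoxO site, each on both strands. In *Plin2* the ACGTG core was present on both strands, overlapping as the palindrome CACGTG that begins at position -4 from the start site. ACGTG was present in 19.6% of 32851 RefSeq mouse promoter windows of the same length, TGTTTAC in 3.65% and the PPAR repeat in 0.0396%.

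Other detected perilipins showed the same direction. The tested probe of *Plin3* and both probes of *Plin5* were called higher, as were 15.8% of all tested probes. The *Plin4* probe was also called higher, but it passed the detection filter through the hSRY-ON livers alone. Its call therefore adds no further support. *2310076L09Rik* (current symbol *Plin5*), which ties droplets to mitochondria in oxidative tissues, read 9.49, 9.54 and 9.65 in hSRY-OFF and 11.47, 10.86 and 11.27 in hSRY-ON livers on its brighter probe. That rise was 3.11-fold (log2 difference 1.64 ± 0.17 SE, limma adjusted p = 0.000758), and its other probe gave 1.56 ± 0.30 (limma adjusted p = 0.00758).

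*S3-12* (current symbol *Plin4*), a perilipin best known from adipocytes, was not detected in any hSRY-OFF liver and was detected in all 3 hSRY-ON livers. Its level in hSRY-ON livers was at least 4.89-fold higher, where the bound sets the mean hSRY-ON level against the lowest detected signal of the hSRY-OFF arrays. The bound itself was not tested, and the fitted log2 difference was 3.07 (limma adjusted p = 0.00198). The bound depends on the background correction, without which the log2 difference was 1.39. *M6prbp1* (current symbol *Plin3*), a coat protein of nascent droplets, differed by 0.94 ± 0.16 (SE, limma adjusted p = 0.00545). *Plin* (current symbol *Plin1*), the adipocyte perilipin, was detected on 0 of 6 arrays. As with *Adfp*, hSRY-ON replicate 2 was the lowest hSRY-ON liver for *Plin3*, *Plin4* and both *Plin5* probes.

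Adipocyte transcripts were examined beside these rises. Of 10 adipocyte marker genes, 7 were detected on no array, namely *Adipoq*, *Car4*, *Cfd*, *Lep*, *Plin1*, *Retn* and *Ucp1*, and the 3 detected were *Nrg4*, *Pparg* and *Plin4*, itself one of the coat proteins above. The summed background-corrected intensity of all 10 genes was 721 to 865 in hSRY-OFF and 1148 to 1333 in hSRY-ON livers. This sum includes *Plin4*, and the 2 probes of the list called higher were those of *Plin4* and *Nrg4*. It is therefore not independent of the coat protein rises. Erythroid and endothelial marker sums were also higher, at 72669 to 94669 against 94883 to 111550 and at 13516 to 15724 against 15827 to 18251. The erythroid ranges nearly met. The erythroid probe of *Hba-a1* was the brightest probe of every array. Quantile normalization therefore fixed it at 15.50 on all 6 arrays, so it could not differ between groups. It adds the same amount to every erythroid sum. Of 9 tested erythroid marker probes, 2 were called higher and none lower (22.2%, against 33.1% of all tested probes). The *Hba-a1* probe is among the 9 and could not be called. Hepatocyte sums (83791 to 92474 against 78963 to 95383) and macrophage sums (14532 to 16025 against 9462 to 18344) overlapped. Of 8 tested hepatocyte marker probes, 4 were called lower and none higher (50%, against 33.1% of all tested probes). Of 11 tested macrophage marker probes, 4 were called lower and 1 higher (45.5%, against the same 33.1%). The lower ones included the Kupffer cell genes *Clec4f* (-0.88 and -0.44) and *Vsig4* (-0.63). The *Clec4f* probe at -0.44 passed the detection filter through the hSRY-OFF livers alone, so its call adds no further support. *Lyz2* probe ILMN_1252076 gave -0.17 with overlapping groups and was highest in hSRY-ON replicate 3. Of 11 tested endothelial marker probes, 6 were called higher and 1 lower (63.6%, against 33.1% of all tested probes). The part of cell composition in the droplet gene differences was not tested.

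*Pnpla2*, encoding ATGL, read 10.31, 10.38 and 10.39 in hSRY-OFF livers and 12.78, 12.80 and 11.57 in hSRY-ON livers. The hSRY-OFF livers had an SD of 0.04, and all 3 hSRY-ON livers were higher, with hSRY-ON replicate 3 the least raised. The difference was 2.03 ± 0.32 (SE, 95% interval 1.28 to 2.77, limma adjusted p = 0.00360), a fold between 2.43 and 6.82 at 95%.

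The *Pnpla2* window (GRCm38.p6, chr7:141454938-141455237, plus strand) is shown for comparison with *Plin2*. It held none of the 3 motifs and so has no capitals.
Pnpla2 promoter: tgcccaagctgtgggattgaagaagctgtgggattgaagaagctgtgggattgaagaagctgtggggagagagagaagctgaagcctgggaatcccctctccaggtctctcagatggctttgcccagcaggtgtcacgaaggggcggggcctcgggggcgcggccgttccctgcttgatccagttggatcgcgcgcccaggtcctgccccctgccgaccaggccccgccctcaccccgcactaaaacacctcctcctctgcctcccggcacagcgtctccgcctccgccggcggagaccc
The windows of *Cideb* and *G0s2* held none of them either.

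*2310016C08Rik*, now *Hilpda*, encodes the hypoxia-inducible lipid droplet-associated protein, an inhibitor of ATGL. Its probe ILMN_1239221 read 7.94, 8.46 and 8.34 in hSRY-OFF livers and 11.72, 11.50 and 11.35 in hSRY-ON livers. The other probe, ILMN_2926198, read 8.54, 9.13 and 9.15 against 12.27, 12.18 and 11.91. On both probes the groups were far apart and the hSRY-ON livers lay closer together than the hSRY-OFF livers, with SDs of 0.19 on each probe. The probes gave differences of 3.28 ± 0.17 (SE, limma adjusted p = 7.94e-05) and 3.18 ± 0.20 (SE, limma adjusted p = 0.000141), the second a 9.07-fold rise.

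RefSeq places 2 starts at *Hilpda*, and the downstream window (GRCm38.p6, chr6:29272376-29272675, plus strand) is shown because it was the only window of the pair with an ACGTG match, in capitals.
Hilpda promoter, start 2: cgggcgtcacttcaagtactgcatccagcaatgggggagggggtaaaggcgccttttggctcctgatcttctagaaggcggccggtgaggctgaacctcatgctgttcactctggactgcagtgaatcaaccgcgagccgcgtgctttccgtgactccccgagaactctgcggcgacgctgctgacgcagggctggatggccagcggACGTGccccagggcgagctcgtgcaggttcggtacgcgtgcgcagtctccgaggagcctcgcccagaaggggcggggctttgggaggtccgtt
Here ACGTG lay at position -43 from the start site, on the plus strand. A match is a description of the letters and not evidence of binding in these livers.

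*G0s2* encodes the other ATGL inhibitor. It read 11.76, 11.90 and 11.34 in hSRY-OFF livers and 11.68, 10.07 and 12.08 in hSRY-ON livers. The groups overlapped, with hSRY-ON replicate 2 below and hSRY-ON replicate 3 above all hSRY-OFF livers, and the SD was 1.06 in hSRY-ON against 0.29 in hSRY-OFF livers. The difference was -0.39 ± 0.48 (SE, 95% interval -1.52 to 0.74, limma adjusted p = 0.565), so that anything from a 0.349-fold to a 1.67-fold level lay within the interval. Without hSRY-ON replicate 2 its sign turned, to 0.21 (limma adjusted p = 0.491).

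Each inhibitor was then set against *Pnpla2* within the same liver, relative to the mean of hSRY-OFF. The log2 ratio of *G0s2* to *Pnpla2* lay between -0.35 and 0.21 in hSRY-OFF livers and was -2.41, -4.04 and -0.80 in hSRY-ON livers. All 3 hSRY-ON livers were below all hSRY-OFF livers, by 2.42 on average, and by 1.61 without hSRY-ON replicate 2. The log2 ratio of *Hilpda* to *Pnpla2* lay between -0.35 and 0.18 in hSRY-OFF livers and was 0.91, 0.80 and 1.76 in hSRY-ON livers, a mean shift of 1.15 in the opposite direction. For each ratio the exact two-sided permutation test gave p = 0.1, the smallest that 3 against 3 arrays allow, and 0.1 after adjustment over the 3 ratios computed.

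**Figure D2:**
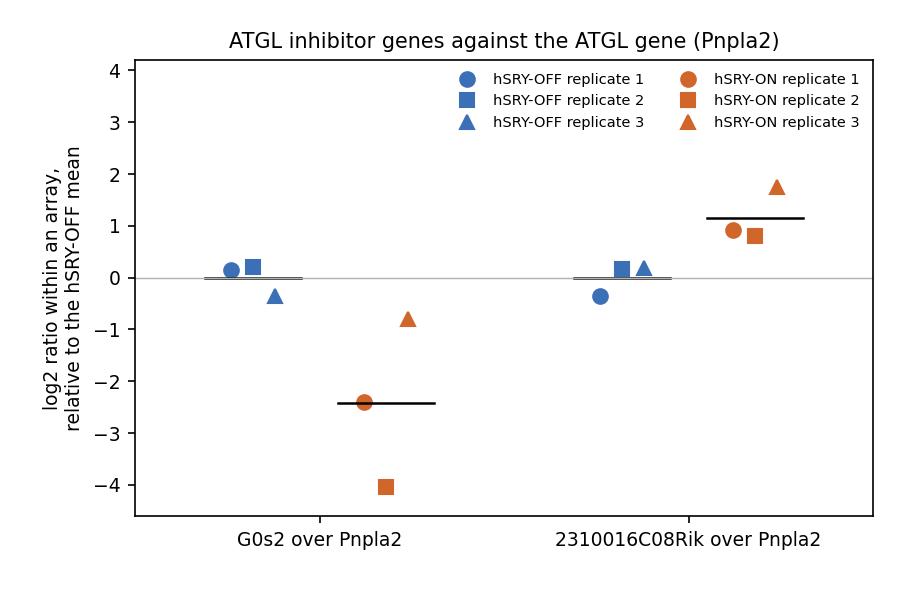
Log2 ratio of each ATGL inhibitor gene to *Pnpla2* within each array, with the mean of the 3 hSRY-OFF livers set to 0, 1 symbol per liver and black lines at group means. *G0s2* fell relative to *Pnpla2* in all 3 hSRY-ON livers and *2310016C08Rik* rose relative to it in all 3.

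The third ratio, *Cidec* to *Cideb*, could not be read, because *Cidec* was below detection on every array. *Cideb* itself, the CIDE protein of hepatocytes, read 12.44, 12.59 and 12.64 in hSRY-OFF livers and 11.84, 11.48 and 11.70 in hSRY-ON livers. It was lower in every hSRY-ON liver, with a difference of -0.89 ± 0.14 (SE, 95% interval -1.21 to -0.56, limma adjusted p = 0.00346). It was the one tested droplet gene that was called lower.

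*Cidea* and *Cidec*, the CIDE genes of brown and white adipocytes and of fatty liver, were detected on 0 of 6 arrays, with detection p from 0.0163 to 0.598 and from 0.0940 to 0.455. *Cd36*, the fatty acid translocase, was also detected on 0 of 6 arrays (detection p from 0.253 to 0.835). Of the *Lipe* probes, ILMN_2742636 was detected on no array and ILMN_3111326 in hSRY-OFF replicate 3 alone, with a detection p of 0.00752 there. For these 4 genes no direction is given, since values near background have no order.

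**Figure D3:**
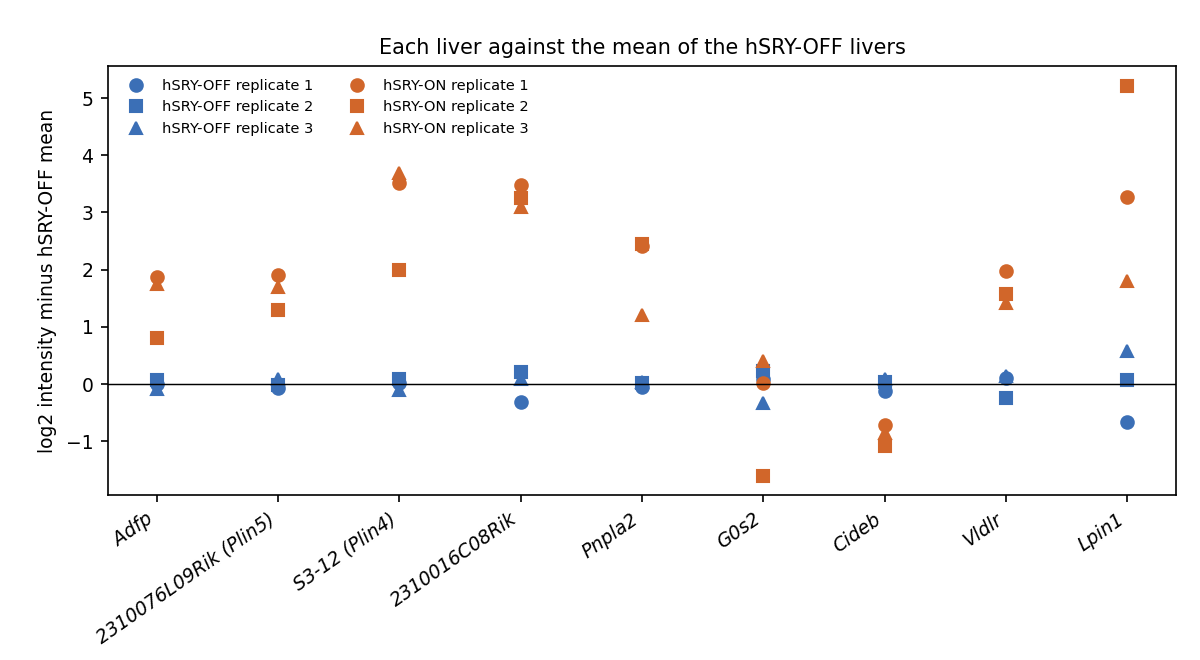
Log2 difference of each liver from the hSRY-OFF mean for the 5 tested droplet genes and 4 other lipid genes (x axis, 1 probe per gene), 1 symbol per liver. The rises of *Adfp*, *2310016C08Rik* and *Pnpla2* and the fall of *Cideb* appear in all 3 hSRY-ON livers, while *G0s2* is near 0 in hSRY-ON replicate 1, at -1.60 in replicate 2 and at 0.41 in replicate 3.

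The size of the response differed among hSRY-ON livers and not in the same way for each gene. Over all tested probes, the median SD of a probe was 0.21 in hSRY-ON livers and 0.14 in hSRY-OFF livers, and it was 0.139 in hSRY-ON livers without replicate 3, where it rests on 2 arrays. *Adfp* exceeded the hSRY-OFF mean by 1.88, 0.81 and 1.75 in hSRY-ON replicates 1, 2 and 3, and *Pnpla2* by 2.42, 2.44 and 1.21. The hSRY-ON liver with the smallest rise was thus replicate 2 for *Adfp* and replicate 3 for *Pnpla2*. Like *Pnpla2*, *Lpin1*, *Lpin2*, *Ppargc1a* and the 3 *Hsd17b11* probes were lowest in replicate 3. They were highest in replicate 2, whereas *Pnpla2* hardly differed between replicates 1 and 2. With 3 livers in the group, this is given as a description with no test.

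Around these genes, 59 genes in 6 lists of droplet formation, lipolysis, uptake and regulation were examined, of which 47 were tested with 61 probes. Of these probes 15 were called higher and 15 lower (49.2%, against 33.1% of all tested probes), with a median difference of 0.17. Outside the coat proteins, each list held calls in both directions. Without hSRY-OFF replicate 1 or replicate 2 the count of lower calls dropped to 7.

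**Figure D4:**
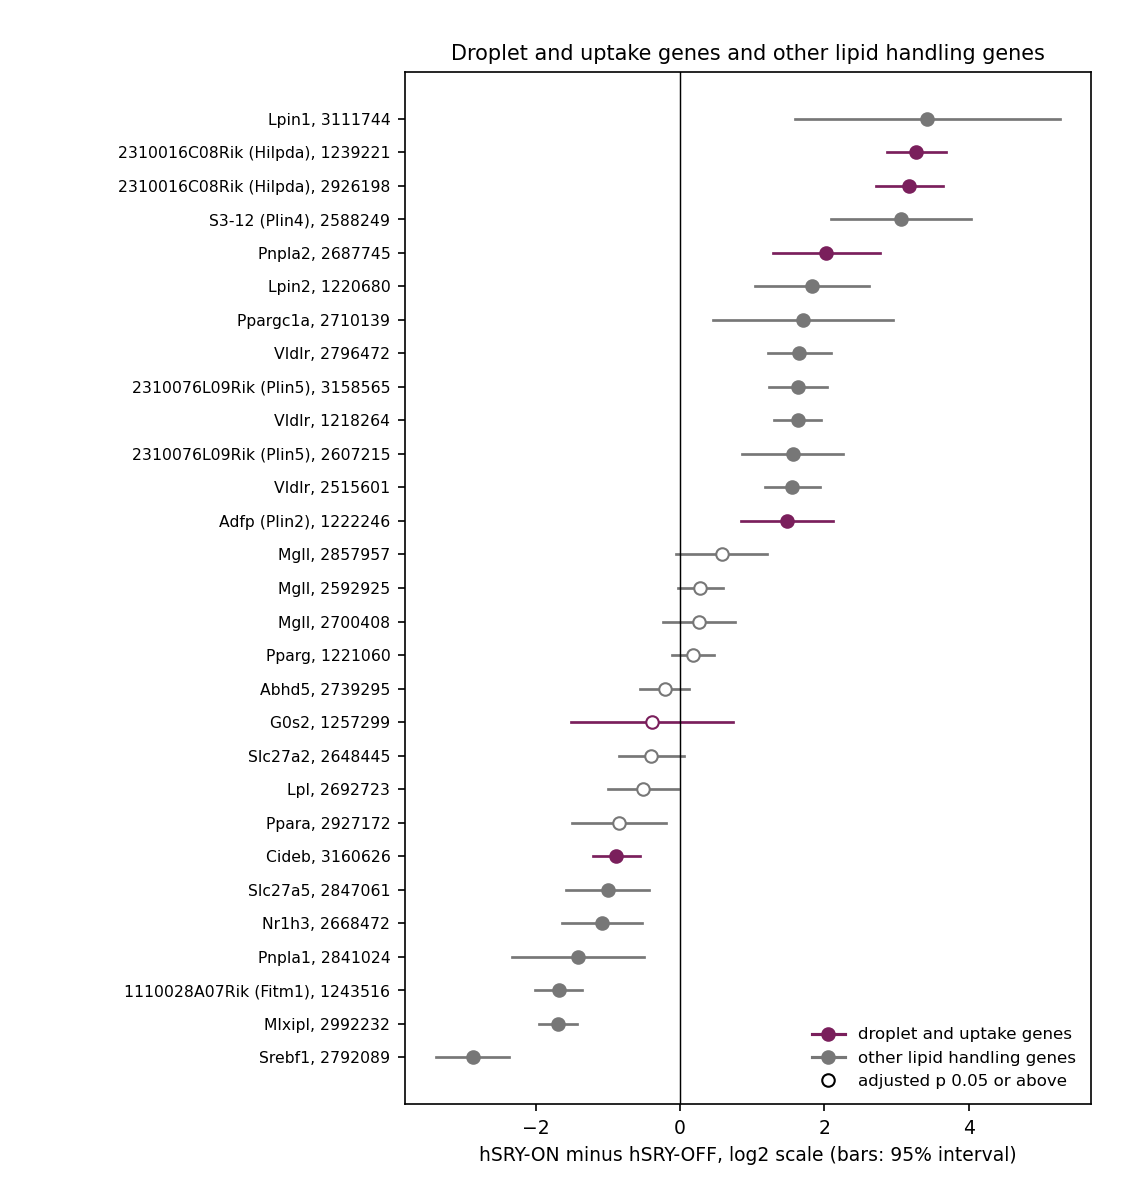
Log2 difference (hSRY-ON minus hSRY-OFF) with its 95% interval from limma for the tested droplet genes and the named pathway genes. Perilipins, *Pnpla2*, *2310016C08Rik*, *Lpin1*, *Lpin2* and *Vldlr* lie right of 0, and *Cideb*, *Srebf1*, *Mlxipl* and *Slc27a5* lie left of it. For *S3-12*, *Srebf1* and *1110028A07Rik* 1 group was not detected and the plotted fitted value depends on the background correction.

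Of 8 tested lipid breakdown probes, 1 was called higher and 1 lower (25%, against 33.1% of all tested probes). *Abhd5*, the ATGL coactivator, read 9.15, 9.12 and 8.75 in hSRY-OFF and 8.83, 8.83 and 8.72 in hSRY-ON livers. Its difference was -0.21 ± 0.14 (SE, 95% interval -0.55 to 0.12, limma adjusted p = 0.286), so the rise of *Pnpla2* was not matched by a called change of its coactivator. The 3 *Mgll* probes gave 0.28, 0.27 and 0.57 and none was called (limma adjusted p from 0.137 to 0.366). *Pnpla1*, a relative of ATGL that acts in skin, was called lower at -1.42 ± 0.39 (SE, limma adjusted p = 0.0286), and the call was lost in 6 of 16 alternative analyses.

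Among 19 tested probes of droplet formation and growth, 5 were called higher and 4 lower (47.4%, against 33.1% of all tested probes). *Lpin1* and *Lpin2* encode phosphatidate phosphatases, which make the diacylglycerol that becomes triglyceride. *Lpin1* read 6.36, 7.11 and 7.61 in hSRY-OFF and 10.29, 12.25 and 8.82 in hSRY-ON livers, without overlap but with a wide spread in both groups. Its difference was 3.43 ± 0.79 (SE, limma adjusted p = 0.0150) and was no longer called without hSRY-OFF replicate 1 (limma adjusted p = 0.0594). Its other probes were detected on too few arrays to be tested. *Lpin2* differed by 1.82 ± 0.34 (SE, limma adjusted p = 0.00664), and *Hsd17b11*, a droplet-associated dehydrogenase, rose on all 3 of its probes by 0.92 to 1.10. *Dgat2*, which makes triglyceride, was lower at -0.48 (limma adjusted p = 0.0315). *1110028A07Rik* (current symbol *Fitm1*), a droplet formation gene best known from muscle, was not detected in any hSRY-ON liver and was at least 1.69-fold lower. Its fitted log2 difference was -1.69 (limma adjusted p = 0.000295). The probe passed the detection filter through the hSRY-OFF livers alone, so its call adds no further support. The bound depends on the background correction, without which the log2 difference was -0.56.

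Among genes of lipoprotein and lipid uptake, *Vldlr* was called higher, while *Lrp1* and *Lsr*, hepatic receptors that take up lipoprotein remnants, were called lower at -0.67 and -0.53 (limma adjusted p = 0.0441 and 0.0233). The *Lrp1* probe was dim and was detected in only 1 hSRY-ON liver. Before correction it ran from 171 to 226 in hSRY-OFF and from 153 to 189 in hSRY-ON livers, so the size of its fall is uncertain. *Vldlr*, the receptor for very-low-density lipoprotein, read 8.26, 8.25 and 8.46 in hSRY-OFF and 10.16, 9.88 and 9.81 in hSRY-ON livers on probe ILMN_1218264. All 3 of its tested probes rose, by 1.65, 1.63 and 1.56, whereas 2 further *Vldlr* probes were detected on 0 of 6 arrays. *Lpl*, the lipase that releases fatty acids from lipoproteins, gave -0.52 ± 0.21 (SE, 95% interval -0.999 to -0.03, limma adjusted p = 0.0929).

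For fatty acid transport and activation, 1 of 10 tested probes was called higher and 3 lower (40%, against 33.1% of all tested probes). *Slc27a5*, a liver fatty acid and bile acid coenzyme A ligase, was lower at -1.01 ± 0.25 (SE, limma adjusted p = 0.0190), a call lost in 4 of 16 alternative analyses. *Slc27a2*, a hepatic fatty acid transporter, gave -0.40 ± 0.19 (SE, limma adjusted p = 0.148). One probe of *Acsl4*, a fatty acid activating enzyme, rose by 1.34 (limma adjusted p = 0.00321), while its other tested probe gave 0.19 (limma adjusted p = 0.470) with overlapping groups. *Acsl5* fell by 0.65 (limma adjusted p = 0.00748).

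Among the regulators, 1 of 11 tested probes was called higher and 4 lower (45.5%, against 33.1% of all tested probes). The lower ones belonged to the lipogenic factors *Srebf1*, *Mlxipl* and *Nr1h3*. *Srebf1*, encoding SREBP-1, read 8.35, 8.29 and 7.80 in hSRY-OFF livers and was not detected in any hSRY-ON liver, being at least 5.42-fold lower, while its other probe was not tested. The fitted log2 difference was -2.88 (limma adjusted p = 0.000219). This *Srebf1* probe passed the detection filter through the hSRY-OFF livers alone, so its call adds no further support. The 5.42-fold bound too depends on the background correction, without which the log2 difference was -1.34. *Mlxipl*, encoding the carbohydrate response factor ChREBP, read 10.54, 10.52 and 10.46 against 8.76, 8.77 and 8.90. It was lower in every hSRY-ON liver, with a difference of -1.70 ± 0.11 (SE, limma adjusted p = 0.000151), and the *Nr1h3* probes, for the oxysterol receptor LXRα, gave -1.08 and -0.94.

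*Ppargc1a*, a coactivator induced by fasting, rose by 1.71 ± 0.53 (SE, limma adjusted p = 0.0449), a call lost in 10 of 16 alternative analyses. *Ppara*, the fatty acid receptor that drives fatty acid oxidation, gave -0.85 ± 0.28 (SE, limma adjusted p = 0.0536) and was past the threshold in 8 of 16 alternatives. The tested probe of *Pparg*, the adipogenic receptor, gave 0.18 ± 0.12 (SE, limma adjusted p = 0.299), and its other 2 probes were not detected on any array.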

How the data were processed

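Total liver RNA was labelled as biotinylated cRNA and hybridised to 6 arrays. The authors deposited, per probe and array, a linear average signal intensity without normalization and a detection p-value. Their processing notes name limma, with no version given. The annotation lists old symbols, which were matched to current ones through RefSeq. The study's methods name a package for count data, so limma 3.58.1 in R 4.3.3 was used instead. Background was corrected with nec, which infers it from the detection p-values, with an offset of 16, followed by quantile normalization and log2. Probes with detection p under 0.01 on at least 3 arrays entered lmFit and eBayes with the group as the sole term, adjusting over all 10734 tested probes. The p-values measure the spread among 3 pups per group, and the number of arrays limits precision.

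The genes, lists and tests were chosen with earlier results of these data known. Genes named from the lists were the 6 symbols with the largest rises and the 6 with the largest falls among called probes, with a fixed set of further names. A few others were named after their values were seen. Scripts were tested on simulated data. No per-sample column was left unmatched. Results for some listed genes are not reported here.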

Additional observations from a re-analysis of the deposited data

How the results depend on the processing

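Background correction, offset, normalization, probe filter, variance model, array weights, 1 probe per symbol, a replicate block and the omission of each array were varied. All 5 called droplet probes kept their direction and call in all 16 alternatives, with *Adfp* between 1.28 and 1.82 and *Pnpla2* between 1.82 and 2.43. *G0s2* ranged from -0.79 to 0.21 on leaving out single arrays, reversing without hSRY-ON replicate 2. Leaving out single arrays, which also leaves fewer samples, gave 10 to 16 higher and 7 to 12 lower pathway probes against 15 and 15. With 1 probe per symbol, 10 were higher. Without background correction the difference of *S3-12* shrank from 3.07 to 1.39, that of *Srebf1* from -2.88 to -1.34, that of *1110028A07Rik* (*Fitm1*) from -1.69 to -0.56, that of *Pnpla1* from -1.42 to -0.73, that of *Ppargc1a* from 1.71 to 1.05 (no longer called, limma adjusted p = 0.0625), that of *Ppara* from -0.85 to -0.49 (then called, limma adjusted p = 0.0440) and that of *Nr1h3* from -1.08 to -0.39. With the replicate block, the counts were 4 higher and 1 lower for the droplet probes and 12 and 12 for the pathway probes. Same-numbered arrays correlated at 0.02, 0.10 and 0.05 in their deviations, and not every array correlated best with its own number, so the numbers were not taken as pairs. Dim probes limit what can be said of *Cd36*, *Cidea*, *Cidec* and *Lipe*.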
